A study of Homo sapiens with 6 samples.

Results

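The MAX network was described in TFK1 cells with and without overexpression of STUB1. TFK1 is a human cell line derived from a bile duct carcinoma (cholangiocarcinoma), and STUB1 is an E3 ubiquitin ligase that works with chaperones. The 10 genes, MYC, MYCN, MYCL, MAX, MXD1, MXD3, MXD4, MXI1, MNT and MGA, were taken by symbol from a table of 23569 genes, and all 10 passed the filter on low values that left 15353 genes. The set was selected on gene family with the FPKM differences between these groups already known, so its values, and the counts of members past a threshold, are given as a description, and no p-value is printed for a member. MYCN passed the filter only through oeNC, with a mean of 0.5004 FPKM there and 0.0134 FPKM in oeSTUB1. RNA was sequenced from 3 libraries labelled negative control (oeNC) and 3 libraries labelled overexpression of STUB1 (oeSTUB1). Both groups were TFK1 cells with no further treatment in the labels. Per the study's methods the lines were made by lentiviral transduction. The labels do not say whether the libraries came from separate cultures, and the study's methods say only in general that experiments were repeated independently, so the spread between libraries, and every p-value that rests on it, may be technical.

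MYC, MYCN and MYCL are transcription factors with a basic helix-loop-helix leucine zipper, and they bind DNA only as a pair with MAX. The preferred site is the E-box CACGTG, from which MYC-MAX pairs raise the transcription of genes for ribosomes, nucleotides and the cell cycle. The MXD proteins, MXI1 (also called MXD2), MNT and MGA compete for MAX and repress from the same kind of site. MYCN is known from neuroblastoma and from embryonic progenitor cells, whereas MYC is the member active in most dividing epithelial cells.

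The targeted gene, STUB1, gave 32.9, 33.0 and 30.9 FPKM (fragments per gene length and per library total) in oeNC and at 61.4, 74.97 and 61.9 FPKM in oeSTUB1 and every oeSTUB1 library was above every oeNC library. Its log2 fold change was 1.03 (SE 0.10, n = 3 per group, limma adjusted p = 0.00064). Library totals, recovered from the FPKM values, lay between 33106564 and 36744521 fragments. Among the epithelial markers reported, KRT19 rose and KRT8, KRT18, EPCAM and CDH1 fell, while KRT7 and SOX9 did not pass the test. KRT8 and KRT18 did not pass in at least one alternative each, and KRT7 did pass without oeSTUB1 replicate 2 (log2 fold change 0.30, limma adjusted p = 0.013). The keratins KRT8 and KRT18 stood at 2172 FPKM or more in both group means and KRT7 at 502 FPKM or more, but KRT19, another bile duct keratin, had group means of only 0.453 FPKM (oeNC) and 2.97 FPKM (oeSTUB1). Summed levels of fibroblast markers reached at most 3.92 FPKM, of endothelial markers 0.231 FPKM and of hepatocyte markers 0.239 FPKM in any library. The summed neuroendocrine markers lay between 3.07 and 4.32 FPKM, nearly all of it SYP, and INSM1 was not listed in the table. Immune markers summed to 31.5 to 33.2 FPKM in oeNC and 24.0 to 25.4 FPKM in oeSTUB1. Most of this was CD68, a lysosomal protein found in many cells, which fell. CD14 had group means of 5.05 FPKM (oeNC) and 5.24 FPKM (oeSTUB1; limma adjusted p = 0.83). The leukocyte marker PTPRC was at or below 0.225 FPKM in both group means. In RNA from whole cultures, fewer cells that express a gene and less RNA per cell cannot be told apart.

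One library stood apart. In oeSTUB1 replicate 2, genes of at most 2102 bases lay 0.33 log2 units (median) above the other oeSTUB1 libraries and genes of at least 6123 bases lay 0.34 below them. Across 15353 genes its difference from the other oeSTUB1 libraries went with gene length at a Spearman rho of -0.56, against -0.13 to 0.07 in the oeNC libraries. The rho was 0.47 for oeSTUB1 replicate 1 and 0.38 for oeSTUB1 replicate 3, each compared with a mean that includes replicate 2. Values and counts that oeSTUB1 replicate 2 moves are given without it as well in the paragraphs on members and lists.

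Sequences are shown first for the members on which the results turn. MYCN and MXI1 had the largest negative log2 fold changes among members, and the 250 bases before their RefSeq starts are printed 5′ to 3′ on the plus strand (GRCh38.p14), with each CANNTG E-box in capitals. Neither stretch held CACGTG. MXI1 has 3 windows in the table, and the one farthest upstream is shown.
MYCN, chr2:15940300-15940549: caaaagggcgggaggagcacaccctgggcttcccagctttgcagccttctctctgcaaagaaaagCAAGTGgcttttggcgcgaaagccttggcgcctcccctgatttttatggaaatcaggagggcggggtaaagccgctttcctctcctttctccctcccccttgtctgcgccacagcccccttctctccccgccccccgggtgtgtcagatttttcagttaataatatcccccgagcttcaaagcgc
MXI1, chr10:110207355-110207604: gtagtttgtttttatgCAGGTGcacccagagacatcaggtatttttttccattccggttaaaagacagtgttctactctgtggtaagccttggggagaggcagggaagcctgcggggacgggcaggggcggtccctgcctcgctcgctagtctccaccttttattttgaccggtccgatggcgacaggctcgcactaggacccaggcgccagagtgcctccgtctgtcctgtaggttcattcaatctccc
The MYCN stretch holds 11 CpG and 57.2% G or C, and the MXI1 stretch 12 CpG and 55.6%, close to the medians of 11 CpG and 58.0% over all 35116 windows. The MXI1 windows not shown are richer, with 28 CpG and 76.4% in one and 24 CpG and 66.8% in the other. MYCN was also the target of a primer pair of the study, shown because it marks which exon an RT-qPCR assay of this gene reads. The RT-qPCR measurements of the study were not analysed here.
MYCN forward: acccggacgaagatgacttct
MYCN reverse: cagctcgttctcaagcagcat
The pair encloses 176 bases of exon 2 of 3 in transcript MYCN-201, inside the coding sequence, at chr2:15942150-15942325 (GENCODE 29, GRCh38). CACGTG lay in the windows of 2 of the 9 members that matched the RefSeq promoter table, the repressors MXD4 and MNT. This is 22.2% of these members, where 8.77% of all 27305 genes with a window, tested or not, held it. Among tested genes with a window, 1451 held CACGTG and 10529 did not. The 30 bases around each CACGTG are printed on the strand of the gene (minus), with the motif in capitals. They are shown because these are the only canonical E-boxes found in the network's own windows.
MXD4, chr4:2262330-2262359: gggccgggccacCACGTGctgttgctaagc
MNT, chr17:2401236-2401265: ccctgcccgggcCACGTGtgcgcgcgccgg
The motif begins 238 bases before the start of MXD4 and 193 bases before that of MNT. A window covers 250 bases before and 50 bases after a start, CACGTG reads the same on both strands, and each CACGTG is also a CANNTG. Over all windows 7.26% held CACGTG, 68.7% held CANNTG, and 14 windows belonged to members.

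Among the activating members, MYC carried nearly all of the transcript in both groups and MYCN had almost no fragments in oeSTUB1. MYCN had 55, 50 and 50 fragments in oeNC and 1, 1 and 2 fragments in oeSTUB1. Its level was 0.542, 0.493 and 0.466 FPKM in oeNC and 0.00993, 0.0103 and 0.02002 FPKM in oeSTUB1. No library of one group reached the other group, and every oeSTUB1 library stood at or under the floor of 3 fragments. Summed over libraries and scaled to their totals, MYCN was 37.2-fold lower in oeSTUB1, from 155 against 4 fragments, with a 95% exact conditional binomial interval of 14.2 to 138 that covers counting error only. On the scale of log2(FPKM + 0.1) the difference was -2.40 (SE 0.21, n = 3 per group), a size set largely by the pseudocount for a gene this low. Without oeSTUB1 replicate 2 it was -2.38. MYCN lies at chr2:15940564-15947007 on the plus strand.

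MYC, the main activator of growth genes, was measured at 28.5, 27.1 and 38.8 FPKM in oeNC and at 25.8, 25.97 and 25.3 FPKM in oeSTUB1. The oeSTUB1 libraries lay close together just under the lowest oeNC library, and oeNC replicate 3 stood well above the rest. The log2 fold change was -0.27 (SE 0.13), and -0.11 without oeNC replicate 3.

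MYCL, a relative first found amplified in small cell lung cancer, was a minor transcript at 0.689, 0.595 and 0.544 FPKM in oeNC and 0.305, 0.411 and 0.483 FPKM in oeSTUB1. The groups did not overlap, but the nearest libraries were 0.544 and 0.483 FPKM. Its log2 fold change of -0.52 (SE 0.20) ranged from -0.64 to -0.37 when each library was left out in turn.

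Added together, the transcripts of the MYC-type members came to 29.8, 28.2 and 39.8 FPKM in oeNC and 26.1, 26.4 and 25.8 FPKM in oeSTUB1. MYC made up 95.9 to 97.5% of that sum in oeNC and 98.1 to 98.8% in oeSTUB1. MYCN made up 1.17 to 1.82% in oeNC and 0.038 to 0.0777% in oeSTUB1, so even in control cells the MYCN transcript was a small share of the MYC-type pool.

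**Figure D1:**
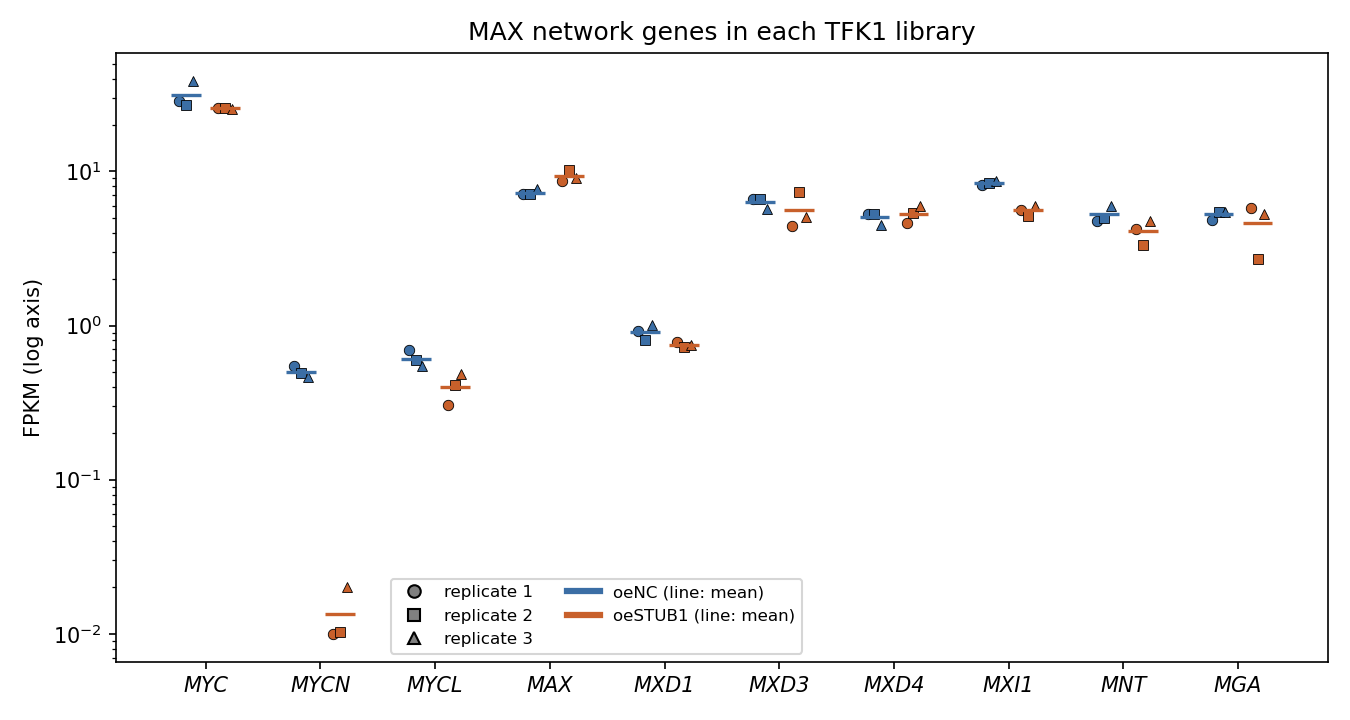
Level of each of the 10 members in every library, as FPKM on a log axis, with 1 point per library and oeNC beside oeSTUB1. MYC lies above all other members in both groups, and the MYCN points go from 0.466 to 0.542 FPKM in oeNC to between 0.00993 and 0.02002 FPKM in oeSTUB1.

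MAX, the shared partner with which the other members bind E-boxes, was the member with the largest positive log2 fold change. It was measured at 7.08, 7.08 and 7.71 FPKM in oeNC and at 8.63, 10.2 and 9.10 FPKM in oeSTUB1, without overlap. The difference was 0.35 (SE 0.09) and came to 0.28 without oeSTUB1 replicate 2, the library with the highest value.

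Of the repressors, MXI1 differed most. It recruits SIN3 corepressors to MAX-bound sites, and it was measured at 8.15, 8.42 and 8.65 FPKM in oeNC and at 5.64, 5.15 and 5.99 FPKM in oeSTUB1. The groups were far apart relative to their spread, with means of 8.41 ± 0.252 and 5.59 ± 0.425 FPKM (SD, n = 3), so that oeSTUB1 held 66.6% of the control level. The log2 fold change was -0.58 (SE 0.09), and it lay between -0.63 and -0.52 when any 1 library was left out.

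The MXD members proper, which are known from differentiating cells, showed no common direction. MXD1 was low, at 0.919, 0.806 and 1.00 FPKM in oeNC and 0.779, 0.724 and 0.744 FPKM in oeSTUB1, with a log2 fold change of -0.24 (SE 0.15) and groups that just did not overlap. MXD3, which among the MXD genes is the one linked to proliferating cells, was measured at 6.63, 6.58 and 5.73 FPKM in oeNC and 4.41, 7.32 and 5.09 FPKM in oeSTUB1. The groups overlapped through oeSTUB1 replicate 2, which lay 0.62 log2 units above the other oeSTUB1 libraries, and the difference of -0.20 (SE 0.18) became -0.40 without it. MXD4 was measured at 5.29, 5.33 and 4.47 FPKM in oeNC and 4.61, 5.34 and 5.96 FPKM in oeSTUB1. Its groups overlapped, and the difference of 0.07 (SE 0.13) ranged from -0.02 to 0.17 when each library was left out.

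MNT and MGA are the large repressors of the network. MNT, present in most cells and the usual counterweight to MYC, was measured at 4.79, 4.99 and 5.99 FPKM in oeNC and 4.20, 3.34 and 4.76 FPKM in oeSTUB1. Its groups were separated only by the step from 4.79 to 4.76 FPKM, and the log2 fold change of -0.36 (SE 0.15) was -0.22 without oeSTUB1 replicate 2. MGA, which also carries a T-box and belongs to the Polycomb complex PRC1.6, was measured at 4.86, 5.48 and 5.43 FPKM in oeNC and 5.80, 2.71 and 5.31 FPKM in oeSTUB1. Its groups overlapped, and the difference of -0.26 (SE 0.26) became 0.08 without oeSTUB1 replicate 2. The gene length recovered for MGA was 12632 bases, the longest of the members, and 9179 bases for MNT. In oeSTUB1 replicate 2 MGA lay 1.01 and MNT 0.41 log2 units under the other oeSTUB1 libraries, and a correction for gene length gave differences of -0.15 for MGA and -0.28 for MNT.

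**Figure D2:**
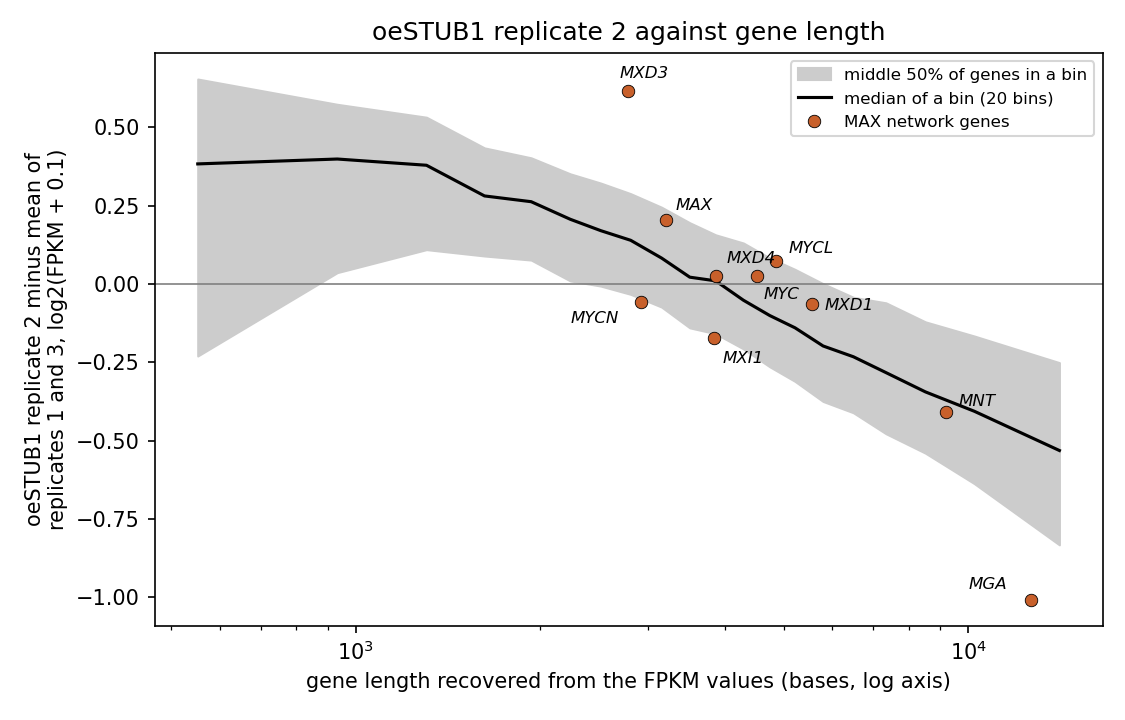
Difference of oeSTUB1 replicate 2 from the mean of the other oeSTUB1 libraries (log2 units) against gene length in bases on a log axis, with the median and the quartiles of genes in 20 length bins and the 10 members as points. The median runs from 0.38 in the bin of shortest genes to -0.53 in the bin of longest genes, and MGA lies lowest among the members at -1.01.

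As a set, 8 of the 10 members had a log2 fold change below 0, where 47.4% of all genes tested did. The members' median was -0.27, and that of all genes was 0.02. For 7 members the groups did not overlap, 6 of them lower and 1 (MAX) higher in oeSTUB1, where 38.8% of all genes did not overlap, 17.3% lower and 21.5% higher. By the test across all genes, 3 members (MYCN and MXI1 lower, MAX higher) had a limma adjusted p under 0.05, where 13.6% of genes did. Without oeSTUB1 replicate 2 the count was 4, where 26.8% of genes passed. MAX passed in only 3 of 15 alternative analyses, MXI1 in all 15 and MYCN in all 14 that tested it. With a fold change of over 2 required as well, MYCN alone remained, where 5.20% of genes were called, 2.79% higher and 2.40% lower. Nothing is read from these counts, since the members were chosen with this comparison known.

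**Figure D3:**
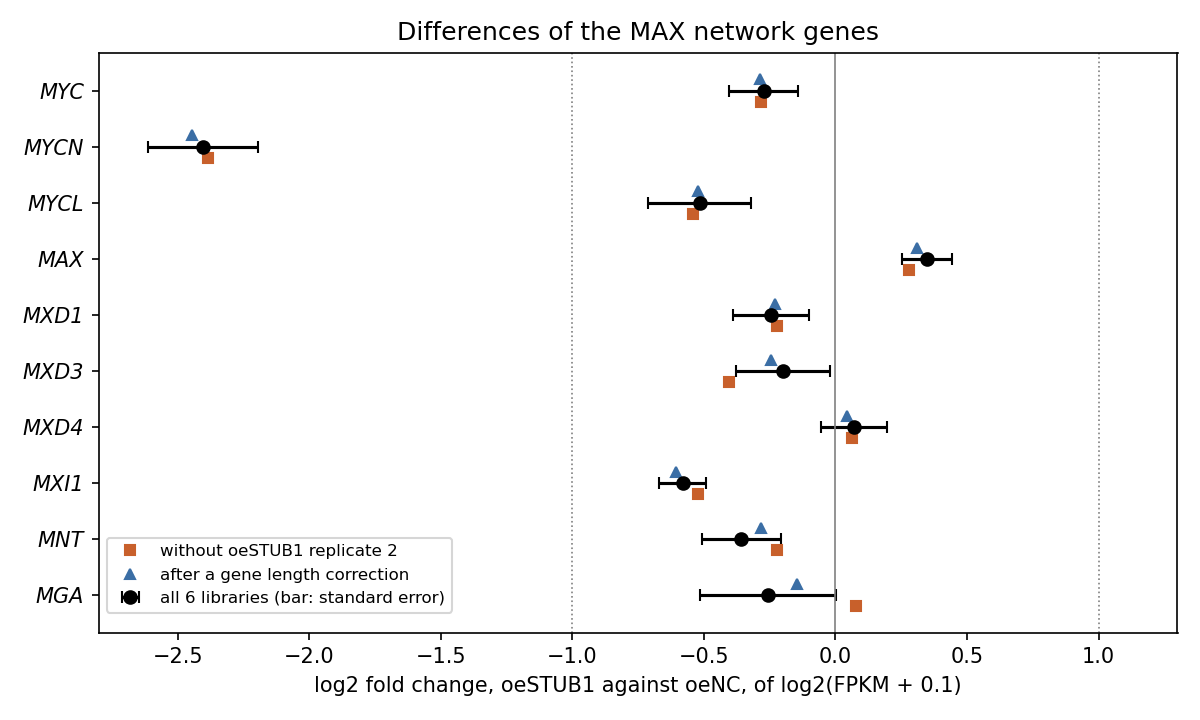
Log2 fold change of each member in oeSTUB1 against oeNC on the log2(FPKM + 0.1) scale, with bars of 1 SE (n = 3 per group) and further markers for the value without oeSTUB1 replicate 2 and with length correction. Dotted lines stand at -1 and 1. MYCN lies at -2.40, MAX lies to the right of 0 at 0.35, and MGA changes side when oeSTUB1 replicate 2 is left out.

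The order of the levels was also compared. In oeNC it ran from MYC through MXI1, MAX, MXD3, MNT, MGA, MXD4, MXD1 and MYCL to MYCN, and the ranges of neighbours overlapped from MXD3 to MXD4. In oeSTUB1 it ran from MYC through MAX, MXD3, MXI1, MXD4, MGA, MNT, MXD1 and MYCL to MYCN, with overlap between neighbours from MXD3 to MNT. MXI1 thus stood above MAX in every oeNC library and below MAX in every oeSTUB1 library.

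The balance of the network was described from sums of FPKM, which are sums of transcript levels and not of protein. The 6 repressors together came to 30.6, 31.6 and 31.3 FPKM in oeNC and 25.4, 24.6 and 27.9 FPKM in oeSTUB1, without overlap, also without oeSTUB1 replicate 2, the lowest of them. MXI1 made up 26.6 to 27.7% of that sum in oeNC and 20.9 to 22.2% in oeSTUB1. Per unit of MAX, the repressors ranged from 4.06 to 4.46 in the oeNC libraries and from 2.41 to 3.06 in the oeSTUB1 libraries. The MYC-type members came to 3.98 to 5.16 per unit of MAX in oeNC and 2.58 to 3.03 in oeSTUB1. Without oeSTUB1 replicate 2, the lowest library in both ratios, the oeSTUB1 ranges were 2.95 to 3.06 for the repressors and 2.83 to 3.03 for the MYC-type members. Both kinds of partner were therefore lower relative to MAX. Between the kinds the ratio overlapped, with 0.893 to 1.27 units of MYC-type transcript per unit of repressor in oeNC and 0.925 to 1.07 in oeSTUB1.

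**Figure D4:**
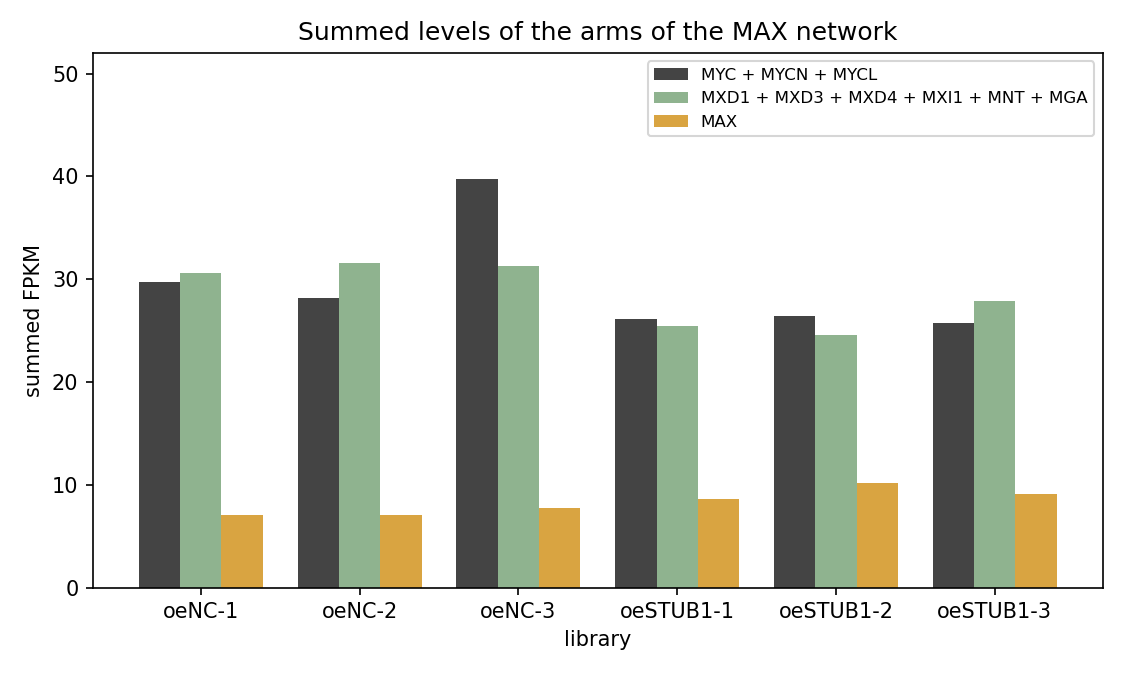
Summed FPKM per library for the MYC-type members (MYC, MYCN, MYCL), the repressors (MXD1, MXD3, MXD4, MXI1, MNT, MGA) and MAX alone, as bars from 0 for the 6 libraries. The repressor bars reach 30.6 to 31.6 FPKM in oeNC and 24.6 to 27.9 FPKM in oeSTUB1.

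The surroundings of MYCN were examined because the gene is amplified in some tumors and shares its locus with an antisense RNA. Within 2 Mb on either side, 8 genes of the table matched a GENCODE 29 symbol and 5 passed the filter, of which 0 had a limma adjusted p under 0.05, 0 an unadjusted p under 0.05 and 0 an adjusted p under 0.05 by limma-voom. Their log2 fold changes ran from -0.35 to 0.22 with a median of -0.04. DDX1, which is often amplified together with MYCN, had means of 87.3 ± 3.01 FPKM (oeNC) and 86.3 ± 6.42 FPKM (oeSTUB1; SD, n = 3), a difference of -0.02 (SE 0.08, limma adjusted p = 0.91). NBAS gave -0.35 (SE 0.21, limma adjusted p = 0.31). MYCNOS overlaps MYCN on the other strand and had at most 1 fragment in any library, and the sources used here do not say if fragments were counted by strand. Over chromosome 2 as a whole, which also holds MXD1, 937 other genes matched in this way were tested. Of these, 723 had a log2 fold change below 0, and the median was -0.20. Over all genes tested 47.4% lay below 0, with a median of 0.02, and the other members' chromosomes had medians from -0.03 to 0.06. Whether this bears on MYCN or MXD1 was not tested. Beside MYC on chromosome 8, the long noncoding PVT1 was at 10.2 ± 0.599 and 9.04 ± 1.219 FPKM (limma adjusted p = 0.36) and CASC11 at 0.195 ± 0.146 and 0.0514 ± 0.0399 FPKM (limma adjusted p = 0.18). CYRIA, a neighbour of MYCN that GENCODE 29 lists under its older symbol, was at 0.177 ± 0.0290 and 0.132 ± 0.0564 FPKM (limma adjusted p = 0.53). With CYRIA, 5 genes of a list beside MYCN and MYC were tested and 0 passed by limma or limma-voom, with 0 at an unadjusted p under 0.05. All 5 had a log2 fold change below 0, with a median of -0.28.

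Of all 15352 other genes tested, UNC13D, HCN2, DCDC2, KIF26A and SLC7A7 followed MYCN most closely over the 6 libraries, with Pearson r from 0.9990 to 0.9996. The libraries fall into the compared groups, so any gene with a large and even difference scores high, and the values describe only that. SLC7A7, an amino acid transporter, went from 124.6 to 18.9 FPKM in the group means, and UNC13D, which acts in vesicle release, from 22.1 to 11.6 FPKM.

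Genes that MYC proteins are known to activate were examined as lists. Of 56 growth genes tested (ribosome biogenesis, nucleotide synthesis and cell cycle), 1 rose and 1 fell at a limma adjusted p under 0.05, against 7.01% and 6.59% of all genes. NIP7, a factor of ribosome maturation, rose from 22.1 to 28.8 FPKM (log2 fold change 0.37, limma adjusted p = 0.034), and SLC29A2, a nucleoside transporter, fell from 6.74 to 5.35 FPKM (-0.33, limma adjusted p = 0.047). The list's median was 0.14, with 45 of 56 genes above 0. Of all 15353 genes tested, 8083 lay above 0, and their median was 0.02. Without oeSTUB1 replicate 2, 12 genes rose and 2 fell with a median of 0.11, but 26.8% of all genes then passed. Of 16 classical E-box targets, EIF4E, the cap-binding translation factor, rose from 13.2 to 16.5 FPKM (0.32, limma adjusted p = 0.040), and the median was 0.09, with 11 genes above 0. When oeSTUB1 replicate 2 was left out, 3 of these targets rose and 1, NCL, fell, and the median turned to -0.04, with 7 genes above 0. With all libraries, well-known targets in it did not pass, among them ODC1 (49.7 to 59.9 FPKM, limma adjusted p = 0.11), NCL (251 to 225 FPKM, limma adjusted p = 0.24), LDHA (998 to 1021 FPKM, limma adjusted p = 0.89) and TERT (1.504 to 1.33 FPKM, limma adjusted p = 0.46). The adjusted p of NIP7, SLC29A2 and EIF4E reached 0.14 to 0.17 in at least one alternative each.

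Genes known to be repressed by MYC or MYCN moved in both directions. Of 10 tested, 2 rose and 2 fell, against 7.01% and 6.59% of all genes, with a median of -0.29. Leaving out oeSTUB1 replicate 2, 2 rose and 4 fell, but 26.8% of all genes then passed in either direction. NDRG1, named for its repression by MYCN, was at 50.2, 47.9 and 38.5 FPKM in oeNC and 18.7, 18.9 and 18.6 FPKM in oeSTUB1. The groups were widely apart, and NDRG1 fell by 1.27 on the log2 scale (SE 0.11, limma adjusted p = 0.0004). Its relative NDRG2 fell from 5.61 to 3.02 FPKM (-0.87, SE 0.11, limma adjusted p = 0.0022). CDKN1A, the cell cycle inhibitor p21, was at 25.7, 26.2 and 24.9 FPKM in oeNC and 33.2, 36.6 and 33.7 FPKM in oeSTUB1 and rose by 0.43 (SE 0.07, limma adjusted p = 0.0086). THBS1, a secreted inhibitor of vessel growth, rose from 6.12 to 10.2 FPKM (0.71, SE 0.11, limma adjusted p = 0.0063). The limma adjusted p of CDKN1A reached 0.055 over the alternatives, and those of the other 3 stayed at 0.039 or below. Whenever 1 oeNC library was left out, 3 genes of this list passed, and CDKN1A did not.

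**Figure D5:**
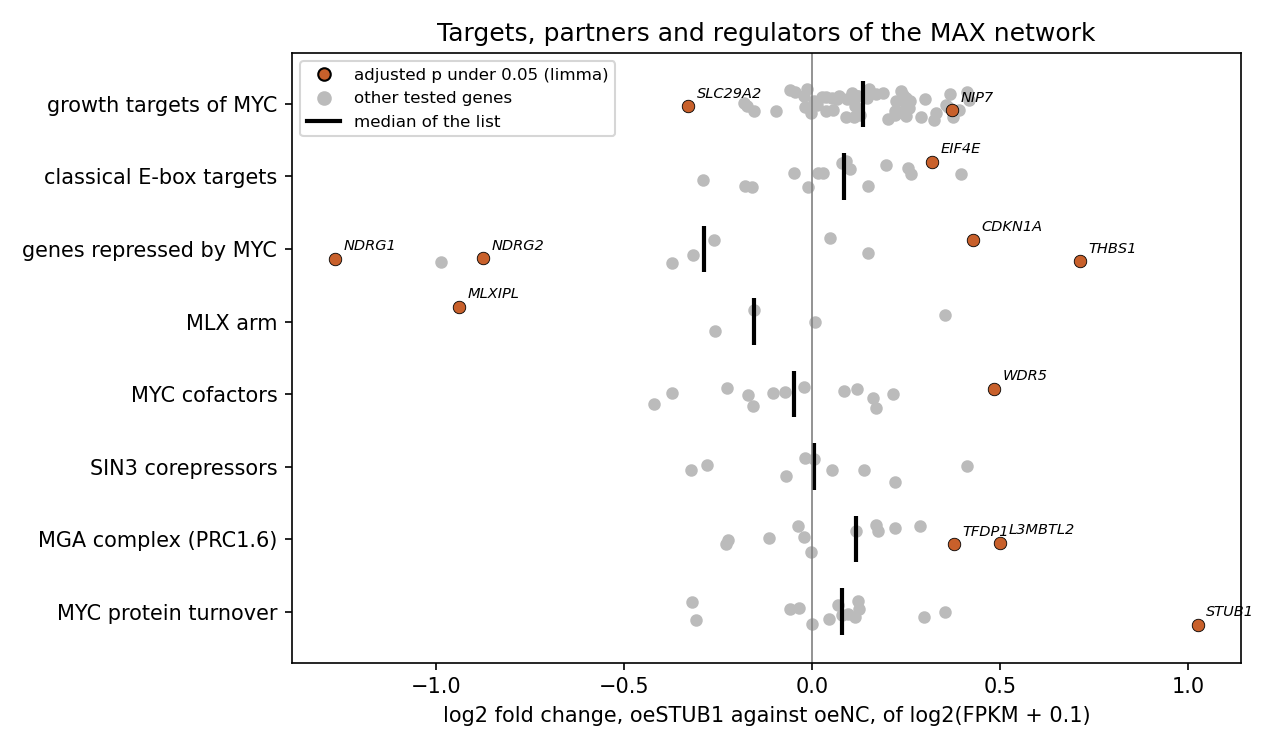
Log2 fold change of every tested gene in the lists around the network, with 1 point per gene, orange where the limma adjusted p was under 0.05 and gray otherwise, and a bar at the median of each list. The growth targets center slightly above 0 (median 0.14) and the repressed targets below it (median -0.29), with NDRG1 at -1.27.

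The partners of the network were compared with the 13.6% of all genes that passed the test, or 26.8% without oeSTUB1 replicate 2. In the parallel MLX arm, which senses glucose, 1 of 5 genes passed, MLXIPL (ChREBP), at 4.42, 4.03 and 4.79 FPKM in oeNC and 1.91, 1.97 and 3.02 FPKM in oeSTUB1. It fell by 0.94 on the log2 scale (SE 0.18, limma adjusted p = 0.013). Of 14 MYC cofactors, WDR5, a chromatin protein that anchors MYC, rose from 11.2 to 15.8 FPKM (0.48, SE 0.09, limma adjusted p = 0.011) and was the one to pass. Among 9 SIN3 corepressor genes, used by MXI1 and the MXD proteins, 0 passed by limma or by limma-voom. HDAC2 and SAP30 had an unadjusted limma p under 0.05, 2 of the 9 genes, and 2 passed without oeSTUB1 replicate 2. Of 13 PRC1.6 genes, L3MBTL2 (5.16 to 7.36 FPKM, limma adjusted p = 0.019) and TFDP1 (28.2 to 36.7 FPKM, limma adjusted p = 0.016) rose, and 3 rose without oeSTUB1 replicate 2. The adjusted p of MLXIPL, WDR5, L3MBTL2 and TFDP1 reached 0.057 to 0.090 in at least one alternative each.

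Among 15 ubiquitin ligases, deubiquitinases and kinases that act on MYC proteins, STUB1 itself was the one that passed, where 13.6% of all genes did. STUB1 is the gene overexpressed by design, so its pass says nothing about the list, and no other gene of the list passed. Without oeSTUB1 replicate 2, TRIM32 and USP7 passed as well, 3 of 15 with STUB1 counted, against 26.8% of all genes. FBXW7, the ligase that marks phosphorylated MYC for degradation, was at 1.83 and 1.45 FPKM (limma adjusted p = 0.12), and AURKA, which shields MYCN from it, at 56.0 and 54.7 FPKM (limma adjusted p = 0.81). Of 4 neural crest and progenitor genes tested, 0 passed by limma or limma-voom, and 2, LIN28B and TWIST1, had an unadjusted limma p under 0.05. In the alternatives, 1 gene of this list passed with length correction and 1 without oeSTUB1 replicate 1. The lowest limma adjusted p in any alternative was 0.044 for LIN28B and 0.049 for TWIST1. LIN28B, which raises MYCN in neuroblastoma, was at 2.74 and 1.93 FPKM (limma adjusted p = 0.11), and TWIST1 at 1.05 and 1.76 FPKM (limma adjusted p = 0.14).

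The E-box was set against the measured differences. CACGTG lay in the windows of 25 of 47 matched growth genes (53.2%) and of 7 of 13 matched classical targets. Of all genes with a window, tested or not, 8.77% held it. The 1451 tested genes with CACGTG had a median log2 fold change of 0.03, and 13% of them passed the test. The 10529 tested genes with a window but no CACGTG had a median of 0.02, and 13.1% passed. A match to these letters is no evidence of binding, and MYC itself had no window in the table.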

How the data were processed

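RNA of TFK1 cells was analysed in 6 libraries, 3 oeNC and 3 oeSTUB1, grouped by their labels. The submitters' processing notes name fastp 0.20.1, HISAT2 2.1.0, HTSeq 0.11.2, R 3.2.0, DESeq2 1.22.2 and GRCh38.p13, without their roles or order. The authors deposited FPKM values for 23569 genes. Whole fragments were recovered from the steps between low values for 23569 genes (100.0%), to a tolerance of 2e-05 fragments, and FPKM computed back from them lay within 4.9e-06 of the deposited ones. The fragments of a gene may be understated by a common factor. No replicate pair agreed within sampling noise, so each library was counted once.

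Genes were compared with limma 3.58.1 in R 4.3.3 (two-sided, eBayes with an intensity trend). The scale was log2(FPKM + 0.1), and 15353 genes whose FPKM averaged 0.1 or more were tested, with Benjamini-Hochberg adjustment, at an adjusted p under 0.05 and, for calls, an absolute log2 fold change over 1. Group values are means with SD. The test was checked on simulated data, in which 194 of 200 genes changed 4-fold were called with the right sign and 1 unchanged gene was called among 14509 tested. All simulated libraries had the same small spread, with no library set apart and no effect of gene length. The changed genes were drawn from genes that were not low. These rates therefore do not carry over to the present libraries, where oeSTUB1 replicate 2 stood apart. The members, the gene lists, drawn from general knowledge, and the tests were chosen with earlier results of these data known. Named are the 10 members, STUB1, any gene of a list of up to 20, in longer lists the 3 largest rises and falls that passed, and the 5 genes closest to MYCN. One epithelial marker is not reported here. Promoter windows are those of RefSeq on GRCh38.p14, gene positions those of GENCODE 29 on GRCh38. Alternatives were other pseudocounts, filters and scaling, no trend, a replicate block, each library left out, limma-voom on recovered fragments and, chosen after seeing the data, a lowess correction for gene length. All value columns were matched to samples, leaving 0 unmatched. Python 3.11.15 was used for the other steps.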

Additional observations from a re-analysis of the deposited data

How the results depend on the processing

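Over 15 alternatives, 142 recomputed log2 fold changes of members moved by less than the spread between replicates and 5 by more. With a pseudocount of 1, 120 genes were called higher and 120 lower, against 429 and 369, and 0 members, since MYCN gave -0.57 there. MYCN gave -4.47 with a pseudocount of 0.01 and -4.81 with limma-voom. With a mean FPKM of at least 1, 202 and 182 genes were called and 0 members, because MYCN was not tested. Members with an adjusted p under 0.05, counted as a description only, numbered 3, and 2 to 4 over the alternatives, the 4 without oeSTUB1 replicate 2. Growth targets past the test numbered 2, but 0 without the intensity trend, 0 with the replicate block, 12 with length correction and 0 to 14 when each library was left out, the 14 without oeSTUB1 replicate 2. Classical targets numbered 1, but 0 with median-ratio scaling, 0 without the trend, 0 with the replicate block, 4 with length correction and 0 to 4 when each library was left out. All genes past the test numbered 2088, 3322 with length correction, and 927 (without oeNC replicate 2) to 4118 (without oeSTUB1 replicate 2), with 953 and 1036 without oeNC replicates 1 and 3. The labels number replicates 1 to 3 in both groups, but same-numbered libraries did not deviate together (correlations -0.049, -0.052 and 0.062). Among the same-numbered pairs, only the libraries numbered 3 were each other's best match. The highest correlation of any pair was 0.11, between oeNC replicate 1 and oeSTUB1 replicate 2. The replicate block gave 405 genes higher and 353 lower, and 1488 past the test. Counting precision limits MYCN in oeSTUB1, where 1 fragment more or less changes the value, and MYCNOS.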
